A study of Mus musculus with 57 samples.

Results

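The Notch pathway genes described here are 8 of the 12087 genes in a table of single kidney cells: the ligands Jag1 and Dll1, the receptor Notch2, the glycosyltransferase Rfng, the DNA-binding mediator Rbpj, and the targets Hes1, Hes5 and Hey1. They were chosen by symbol, and all 8 had a row in the table. The 57 cells carried Tg(Crym-EGFP)82Gsat, a transgene in which Crym regulatory sequence drives EGFP, on a mixed background. They were renal vesicle cells taken at postnatal day 4 from 1 pool of 2 kidneys, with the sex given as unknown or as both. Kidneys were minced and digested with trypsin, and sorted cells were captured singly on a Fluidigm C1 chip. SMARTer complementary DNA was turned into Nextera XT libraries, which keep no strand and carry no molecular identifiers. The aim stated for the series was an atlas of transcription in the developing kidney. No treatment or second genotype was included, so the cells form a single group.

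Notch signalling passes between cells in contact. A ligand of the Jagged or Delta family on 1 cell binds a Notch receptor on its neighbour, the receptor is cleaved, and its intracellular domain joins Rbpj on DNA to activate genes of the Hes and Hey families, which encode transcriptional repressors. Fringe enzymes such as Rfng add sugars to the receptor and so alter its response to different ligands. In the forming nephron the pathway is known for its part in proximal segments, with Notch2 as the receptor whose loss removes them.

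Cells were grouped by genes that are not members. Sox9, however, can be counted as a Notch target. It was left out of the other pathway genes below because it cuts the classes, so the grouping is not fully independent of the pathway. Wt1, a transcription factor of podocyte precursors and the early nephron, was at RPKM 20 or more in 36 cells, and Sox9 or Papss2, a transcription factor and a sulfate-activating enzyme used here as distal genes, reached that level in 18 cells. RPKM is reads per kilobase of transcript, scaled by the number of mapped reads, and it allows levels of different genes to be compared. These cuts gave 29 cells with Wt1 alone (Wt1-only), 11 with a distal gene alone (distal-only), 7 with both and 10 with neither. The classes are ranges of expression and not cell types. Just inside the Wt1 cut was cell 23 at 21.5 and just outside it cell 47 at 10.9, and for the higher of Sox9 and Papss2 these were cell 36 at 51.9 and cell 9 at 17.2. Between RPKM 10 and 40 lay 6 cells for Wt1 and 2 cells for the distal genes.

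Cells of 1 pool are not replicates, so differences between classes are given as descriptions with the SD over cells and with no test. Estimated depth ranged over the cells from 0.473 to 2.28 M reads (M for mega). Its median was 1.48 M in Wt1-only, 1.56 in distal-only, 1.53 in both and 1.16 in neither cells. The number of genes at RPKM 1 or more had a median of 4307 over the cells, and it was higher in the cells with both (5379) than in Wt1-only (4275) or distal-only cells (4385). Pax8, a transcription factor of nephron epithelium, was below RPKM 5 in 7 cells, which goes against their renal vesicle label: 6 of the cells with neither gene set, and cell 13 of the Wt1-only class. In 5 of these 7 (cells 1, 25, 35, 46 and 58) the macrophage gene C1qb was above RPKM 1000. Of the 11 macrophage genes listed, the summed RPKM in those 5 cells was 9024 to 19607, against 219 or less in Wt1-only and 182 or less in distal-only cells.

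At RPKM 1 or more, Jag1 was detected in 56 of 57 cells, Notch2 in 55, Hes1 in 46, Hey1 in 45, Rbpj in 26, Dll1 in 18, and Hes5 and Rfng in 4 each. In mean RPKM over all cells, Jag1 was highest with 219 ± 192 (SD, n = 57 cells). It was followed by Hey1 (91.2 ± 109), Dll1 (49.9 ± 110), Notch2 (24.9 ± 14.4), Hes1 (18.7 ± 32.4), Rbpj (11.1 ± 20.8), Rfng (2.34) and Hes5 (2.13). The SD exceeded the mean for Hey1, Dll1, Hes1, Rbpj, Rfng and Hes5. Between neighbours in that order, the gap in means was smaller than the SD of the higher gene. All members were measured in the same cells, so this SD does not measure how firm the order is. Notch2 was the member with the smallest spread for its level. At the median depth, RPKM 1 corresponds to about 15.4 reads for the long Notch2 transcript, 10.2 for Rbpj, 8.24 for Jag1 and 5.26 for Dll1, but only 3.56 for Hey1, 3.11 for Rfng, 2.16 for Hes1 and 1.87 for Hes5. A missing signal is therefore least certain for the short genes.

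**Figure D1:**
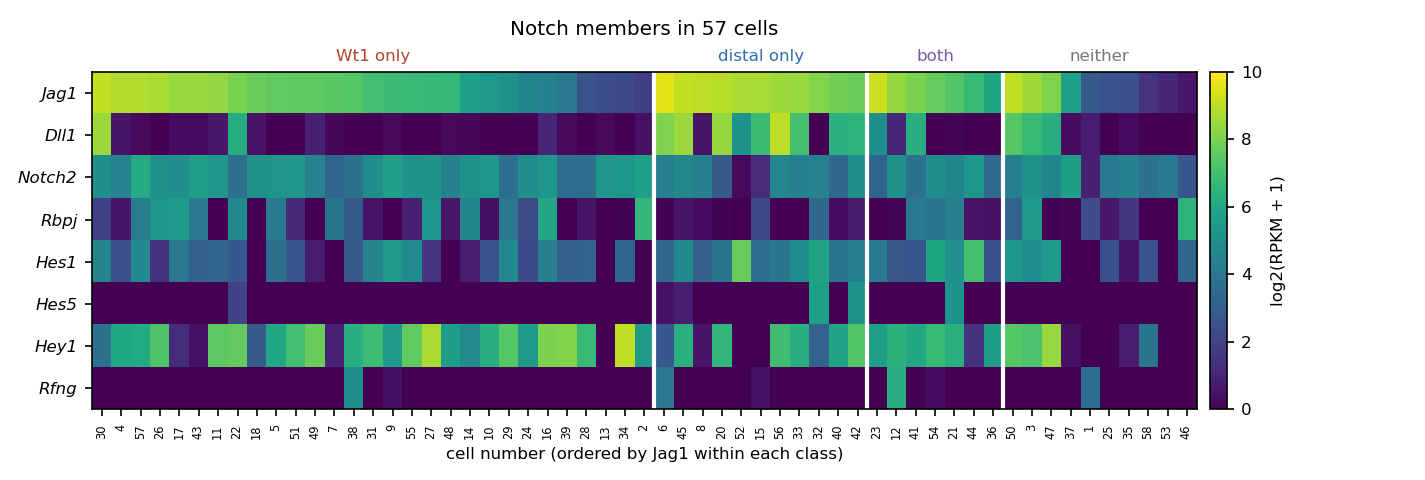
Heat map of the 8 members (rows) in the 57 cells (columns, cell number), in log2(RPKM + 1) from dark (0) to bright (10). Cells are set apart by class and ordered by Jag1 within each. The Dll1 row is bright in 9 of 11 distal-only cells and in 2 of 29 Wt1-only cells.

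Between Wt1-only and distal-only cells, 6 members passed the filter on low values (mean RPKM of 1 or more and detection in at least 5 cells), and these 6 were past 2-fold in mean log2(RPKM + 1). Notch2, Rbpj and Hey1 were higher in Wt1-only cells, where 9.32% of the 10083 genes that passed the filter were past 2-fold. Jag1, Dll1 and Hes1 were lower there, as were 11.1% of those genes, and 20.5% were past 2-fold in either direction. Hes5 and Rfng did not pass. With a pseudocount of 10 in place of 1, Jag1 and Dll1 alone were past 2-fold. At that setting only 1.57% of the 10083 genes were past 2-fold higher in Wt1-only cells and 2.6% lower. Members were chosen with earlier results of these cells known, so the counts of members are descriptions.

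Jag1 (chromosome 2, 136907194 to 136942067, build mm9) encodes a Jagged ligand. Its RPKM was 2.63 to 535 with a median of 123 in the 29 Wt1-only cells, and 212 to 772 with a median of 409 in the 11 distal-only cells. All 11 distal-only cells lay above the Wt1-only median, but the classes overlapped, and only cells 6 and 45 exceeded the highest Wt1-only cell. Mean log2(RPKM + 1) was 6.41 ± 2.18 in Wt1-only and 8.61 ± 0.56 in distal-only cells, a difference of -2.20. The smaller spread was that of the distal-only class, in which no cell was low. In the 7 cells with both gene sets Jag1 was 57.3 to 585 with a median of 197. Cells with neither split by Pax8: in the 4 with Pax8 at 5 or more Jag1 was 49.7 to 531, and in the 6 below 5 it was 0.54 to 6.21. Jag1 was thus far lower in the Pax8-low cells, in none of which it reached RPKM 20.

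Dll1 (chromosome 17, 15504318 to 15512787), a Delta ligand, showed the largest class difference of the members. Its values fell into a low and a high range, with no cell between RPKM 1.15 and 30.6. In Wt1-only cells the lowest was 0, the median 0.18 and the highest 362. Only cells 30 (362) and 22 (71.6) were in the high range, and cell 16 was at 1.09. In distal-only cells the lowest was 0, the median 115 and the highest 512, and 9 of 11 cells were in the high range (81.8%, exact Clopper-Pearson 95% interval 48.2 to 97.7, covering the sampling of cells from this pool only). The exceptions were cells 32 (0) and 8 (0.49), so the classes overlapped at both ends. Mean log2(RPKM + 1) was 0.73 ± 1.88 in Wt1-only and 6.05 ± 3.07 in distal-only cells. The difference of -5.31 corresponds to 39.8-fold on this scale, and only 4 of the 10083 genes, Dll1 included, had a difference as low. Sox9 and Papss2, on which the distal-only class was cut, are also among those 4. Of the other cells, Dll1 was in the high range in 2 of 7 with both gene sets (30.6 and 77.2) and in 3 of 4 with neither and Pax8 at 5 or more (75.9, 107 and 170). Those 3 cells show that high Dll1 was not restricted to cells with a distal gene at RPKM 20. In all 7 Pax8-low cells Dll1 was 0.77 or less.

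A promoter window of Dll1 is shown because the gene differed most between classes cut in part on the transcription factor Sox9. The sequences are from RefSeq on build GRCm38.p6, where 6 of the 8 members had at least 1 promoter entry, with 8 windows in all. Each was searched in the 250 bases before the annotated start on both strands for ACAAT, a core bound by SOX proteins, which 27.7% of 32851 windows of that length held. The window at chr17:15376933-15377182 (minus strand) had 3 matches, which begin 217, 168 and 95 bases before the start and are in capitals (ATTGT is the same core on the other strand). The start of this window was not that of a GENCODE M21 transcript, and the other Dll1 window, whose start was, had no match. The core was also in the windows of Hes5 (2 matches) and Jag1 (1 match), so it was not particular to Dll1.
Dll1: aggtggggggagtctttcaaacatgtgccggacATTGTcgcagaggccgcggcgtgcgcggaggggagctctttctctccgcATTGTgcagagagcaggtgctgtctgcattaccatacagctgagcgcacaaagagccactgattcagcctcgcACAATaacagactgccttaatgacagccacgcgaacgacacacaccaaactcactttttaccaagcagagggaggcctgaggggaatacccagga
A match is a description of the letters and does not show that a protein binds there.

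Every cell with high Dll1 also had high Jag1, whereas the reverse did not hold. The 16 cells with Dll1 at RPKM 20 or more had Jag1 at 212 or above, and 25 cells had Jag1 at that level, of which 9 had low Dll1. No cell had Dll1 at RPKM 1 or more without Jag1, but Jag1 was detected in 56 of 57 cells, which left little room for such a cell. Among the 50 cells with Pax8 at 5 or more, the median Jag1 was 393 in the 16 Dll1-high cells and 141 in the other 34. The targets differed in this split. Hes1 was detected in all 16 Dll1-high cells (5.40 to 202, median 17.6) and in 27 of 34 others (0 to 132, median 7.43), while Hey1 had similar medians of 78.1 and 73.4. Median Notch2 was 19.0 in Dll1-high and 33.0 in Dll1-low cells, and Wt1, which cut the classes, was 2.38 and 187. Of the 16 Dll1-high cells 9 were distal-only, so these values are not separate from the class differences.

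**Figure D2:**
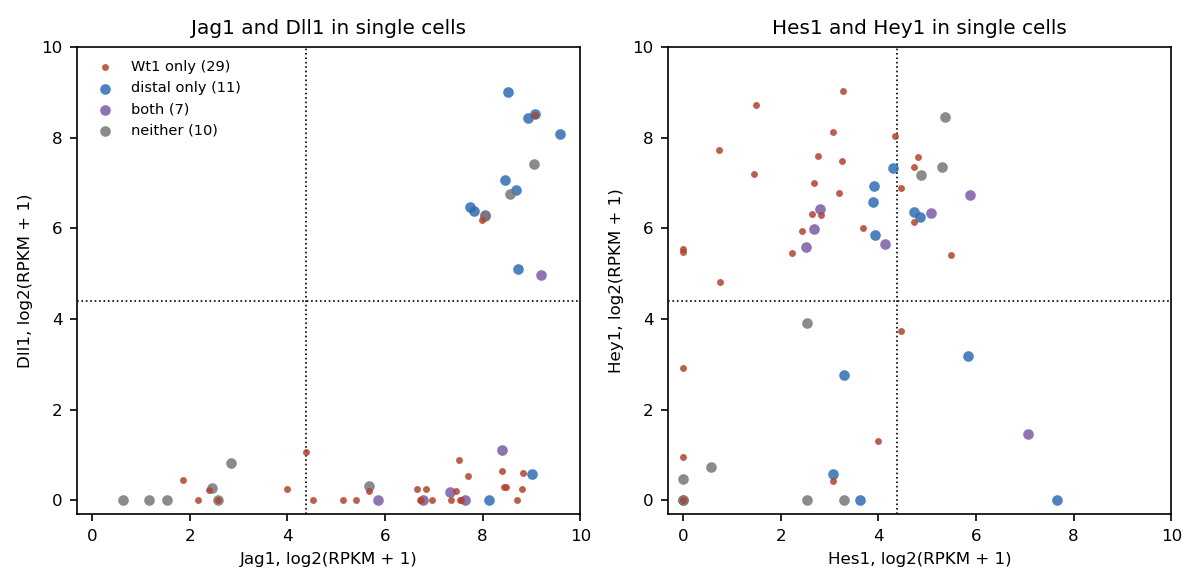
Scatter plots of Jag1 against Dll1 (left) and Hes1 against Hey1 (right), each point 1 cell in log2(RPKM + 1), coloured by class, with dotted lines at RPKM 20. On the left the upper field holds 16 cells, all at the high end of Jag1. On the right the points spread over the field without a common line.

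Notch2 (chromosome 3, 97817461 to 97954290), the receptor among the members, was present in nearly every cell. In Wt1-only cells it was 8.48 to 70.9 with a median of 33.1, and in distal-only cells 0.18 to 29.7 with a median of 19.5. No distal-only cell reached the Wt1-only median, yet the ranges overlapped from 8.48 to 29.7. Mean log2(RPKM + 1) was 4.84 ± 0.75 in Wt1-only and 3.57 ± 1.54 in distal-only cells, a difference of 1.26. This difference depends on cell 52, a distal-only cell with Notch2 at 0.18 and an estimated 0.510 M reads: it was 0.93, below 2-fold, without that cell, 0.97 without the cells under 1 M reads, and 0.71 with a pseudocount of 10. Cells with both gene sets had Notch2 from 8.30 to 38.2 with a median of 21.7. In the 7 Pax8-low cells Notch2 was 0.85 to 35.9, reaching RPKM 1 in 6 of them, as Jag1 did at lower levels.

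Notch1, a second receptor and no member, lay the other way. It was 0 to 71.8 with a median of 8.50 in Wt1-only cells (21 of 29 detected) and 2.41 to 70.6 with a median of 30.8 in distal-only cells (11 of 11), a difference of -1.50 in mean log2(RPKM + 1). The ranges of the classes overlapped. In distal-only cells the median of Notch1 was above the highest value of Notch2.

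Rfng (chromosome 11, 120642059 to 120645518) was detected in 4 cells: cell 12 with both gene sets at RPKM 75.9, Wt1-only cell 38 at 30.2, distal-only cell 6 at 15.1 and the C1qb-high cell 1 at 11.2. Each class held 1 of them, so no class stood out. Lfng, another fringe enzyme, was found in 10 cells and peaked at 132 in a Wt1-only cell.

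Rbpj (chromosome 5, 53947018 to 54048684), which holds the activation complex on DNA, was detected in 16 of 29 Wt1-only cells (0 to 98.2, median 2.91) and in 2 of 11 distal-only cells (0 to 9.01, median 0.24). All 7 values of 20 or more in either class were in Wt1-only cells, with cells 2 (98.2) and 16 (65.2) highest. The classes overlapped at the low end, where 13 Wt1-only cells were below RPKM 1. Mean log2(RPKM + 1) was 2.42 ± 2.25 and 0.69 ± 1.07, a difference of 1.73 (0.74, below 2-fold, with a pseudocount of 10). Rbpj was also high in the C1qb-high cell 46, at 86.4. In the 7 cells with both gene sets it was 0 to 18.8, detected in 3. The mouse genome holds processed copies of Rbpj that can share its reads, and none had a row of its own, so these levels are uncertain to that extent.

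Hes1 (chromosome 16, 30065443 to 30067882), a repressor of the hairy and enhancer of split family, was detected in 22 of 29 Wt1-only cells (0 to 43.8, median 6.14) and in 11 of 11 distal-only cells (7.46 to 202, median 14.4). Every distal-only cell lay above the Wt1-only median, and cells 52 (202) and 32 (56.5) exceeded the highest Wt1-only cell. Mean log2(RPKM + 1) was 2.64 ± 1.70 and 4.47 ± 1.31, a difference of -1.83 (-0.91, below 2-fold, with a pseudocount of 10). Cells with both gene sets had Hes1 at 4.70 to 132, with a median of 16.6 and detection in 7 of 7. In Pax8-low cells it did not exceed 8.81.

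Hey1 (chromosome 3, 8663359 to 8667038), a repressor of the related Hey family, had the higher level in Wt1-only cells. It was detected in 26 of 29 (0 to 524, median 77.8), with cells 34 (524) and 27 (423) highest, and in 8 of 11 distal-only cells (0 to 159, median 57.0). The 11 distal-only cells lay within the Wt1-only range, and 4 of them were above its median. Mean log2(RPKM + 1) was 5.74 ± 2.47 in Wt1-only and 4.17 ± 2.93 in distal-only cells. The difference of 1.57 was smaller than either SD, and the distal-only cells 8, 15 and 52, all at 0.51 or less, contributed to it. With a pseudocount of 10 it was 0.99, below 2-fold. Hey1 was above Hes1 in 24 of 29 Wt1-only and 6 of 11 distal-only cells, and in 42 of all 57. At RPKM 1, 40 cells had both targets, 6 had Hes1 alone, 5 had Hey1 alone, all of them Wt1-only, and 6 had neither.

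**Figure D3:**
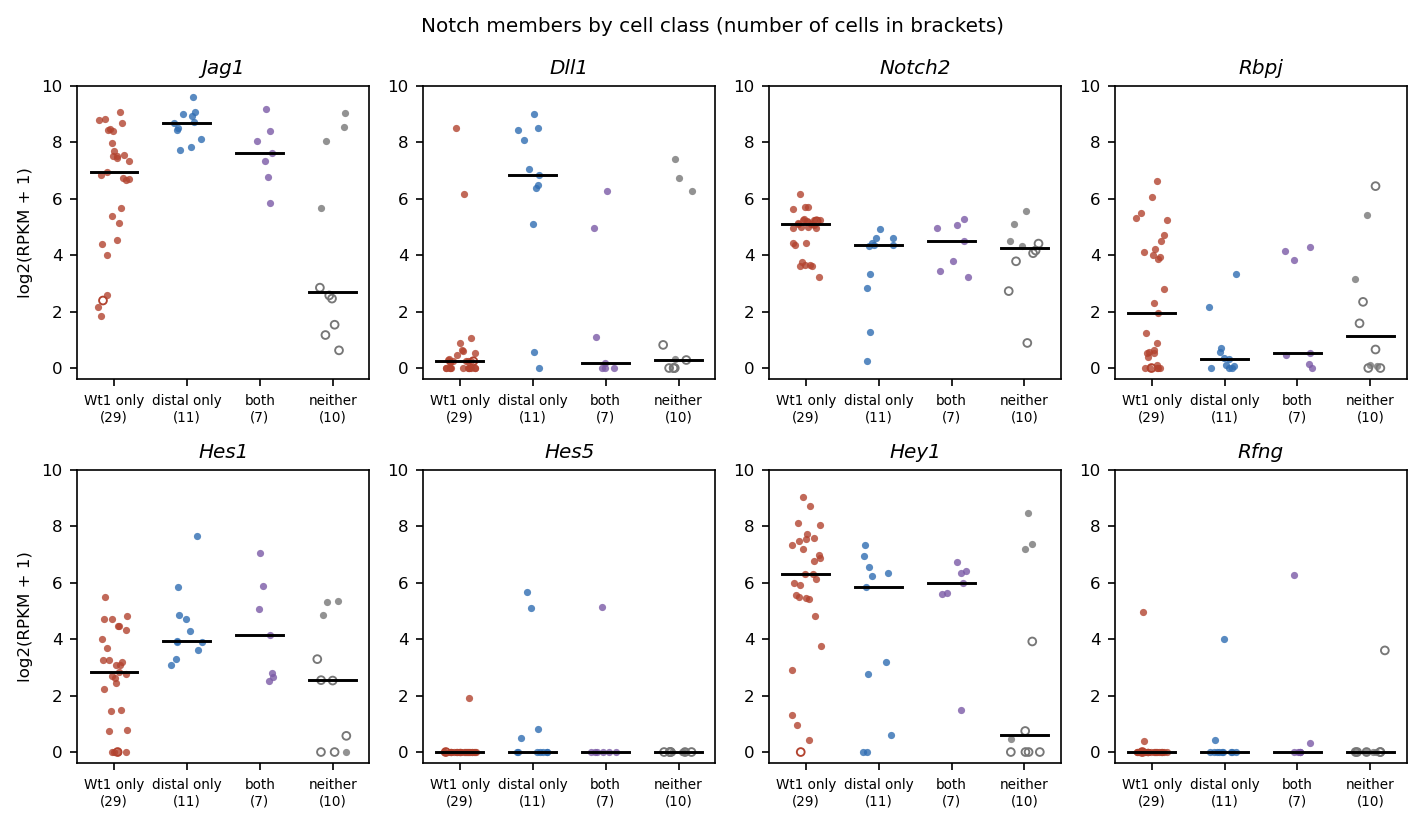
The 8 members in log2(RPKM + 1) by cell class, each point 1 cell and the black line the class median. Open circles are the 7 cells with Pax8 below RPKM 5. The distal-only points of Jag1 sit together near the top, Dll1 splits into high and low cells, and the classes overlap for each member.

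Hes5 (chromosome 4, 154335032 to 154336480), a second hairy and enhancer of split gene, was present in few cells. The 4 cells at RPKM 1 or more were the distal-only cells 32 (50.0) and 42 (33.7), cell 21 with both gene sets (34.0) and Wt1-only cell 22 (2.82). Its 3 higher values were thus all in cells with a distal gene, but the gene did not pass the filter and its difference of -1.04 was not called. Cell 32, highest for Hes5, was also second for Hes1 among distal-only cells, with Dll1 at 0. Gm20421 on the opposite strand shares 433 of 1363 exon bases of Hes5 in GENCODE M21, and A930024N18Rik likewise shares 867 of 4219 with Dll1. Without strand their reads cannot be told apart, so levels of Hes5 and Dll1 are uncertain to that extent. Notch2 shares 541 of 10782 exon bases with Gm42820 on its own strand.

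The Hes5 promoter window is shown because it alone among the 8 member windows held GTGGGAA, a core bound by RBPJ, the protein of the member Rbpj. Searched on both strands, that core was in 5.42% of the 32851 windows. At chr4:154960673-154960922 (plus strand, GRCm38.p6) there were 2 matches, in capitals, which begin 226 and 83 bases before the start, the first of them on the opposite strand (TTCCCAC).
Hes5: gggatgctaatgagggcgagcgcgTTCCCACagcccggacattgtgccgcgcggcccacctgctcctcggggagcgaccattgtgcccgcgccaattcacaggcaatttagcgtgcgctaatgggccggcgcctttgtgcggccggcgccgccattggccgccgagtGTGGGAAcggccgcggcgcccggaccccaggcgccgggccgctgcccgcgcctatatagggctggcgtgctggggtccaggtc
Windows without a match say nothing of the factor. Hes1 and Hey1 had no promoter entry.

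Ligand, receptor and target were found together in most cells. At RPKM 1, 56 cells had Jag1 or Dll1, 55 had Notch2, 51 had Hes1, Hes5 or Hey1, and 49 had all 3 kinds. These were 27 of 29 Wt1-only, 10 of 11 distal-only, 7 of 7 with both and 5 of 10 with neither. Rbpj was detected as well in only 22 of the 49, 15 of them Wt1-only. At RPKM 20 all 3 kinds were in 25 cells, and in 4 with Rbpj. At RPKM 1 the presence of ligand and receptor in the same cells follows from their separate counts of 56 and 55, so it is no further result. These counts do not show which cells signalled to which.

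Rank correlations across the 50 cells with Pax8 at 5 or more describe how members varied together, and the cells share 1 pool and differ in depth. Jag1 and Hes1 had a Spearman rho of 0.31 (0.44 over all 57 cells and 0.15 within the 29 Wt1-only cells). Jag1 and Notch2 had -0.27, Jag1 and Hey1 -0.22, and Hes1 and Hey1 0.11. Against the class genes, Jag1 had -0.50 with Wt1, but -0.06 within Wt1-only cells, and 0.37 with Sox9. Notch2 had the opposite signs, 0.35 with Wt1, but -0.03 within Wt1-only cells, and -0.41 with Sox9. Jag1 thus varied with Wt1 between classes more than within the Wt1-only class. Within Wt1-only cells, rho with Sox9 was 0.004 for Jag1 and 0.14 for Notch2, but Sox9 was detected in only 2 of those 29 cells. Hey1 had 0.32 with the number of genes detected in the cell.

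Among 7704 genes detected in at least 10 of those 50 cells with mean RPKM of 1 or more, the 5 with the highest rho to each member were taken, for members detected in at least 20 cells. Picking the highest of so many values raises them. How high rho goes between unrelated genes in these cells was not tested, so the lists are descriptions. For Jag1 these were Tpd52 (0.60), Prnp (0.57), Greb1 (0.56), the Wnt modulator Sfrp2 (0.56) and 1500016L03Rik (0.56). For Notch2 they were Tspan15 (0.52), Sncaip (0.47), Fam160b1 (0.46), the ephrin Efnb1 (0.44) and Ifi27l1 (0.44). Rbpj was led by the cytoskeletal scaffold Iqgap1 (0.63), with Zfp367 (0.51), the DNA repair gene Mre11a (0.51), Phf17 (0.50) and Jun (0.48). Hes1 had Fam171a1 (0.50), the cyclin Ccnd1 (0.49), Zbtb10 (0.45), Prnp (0.44) and Papss2 (0.43), the last of which cut the classes. Hey1 had Cnnm3 (0.56), Ndufaf3 (0.54), Ss18 (0.53) and Ube2f (0.53). Prnp was the 1 gene on more than 1 of these lists, those of Jag1 and Hes1. Dll1, Hes5 and Rfng were in too few cells for this measure.

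Of 63 other pathway genes listed by role, 49 had a row and 44 passed the filter, and 4 of the 44 were past 2-fold higher in Wt1-only cells and 7 lower. Over all genes 9.32% were past 2-fold higher, 11.1% lower and 20.5% either way, and the 11 of 44 are near that share. With a pseudocount of 10 in place of 1, only 3 of the listed genes were past 2-fold, and over all genes 1.57% were higher and 2.6% lower. With the pseudocount of 1, the median difference of the 44 was -0.22, against 0.02 over all 10083 genes. Higher in Wt1-only cells were the gamma-secretase subunit Ncstn (1.93), the target Hey2 (1.44), the ubiquitin ligase Itch (1.09) and the coactivator Ep300 (1.07), all in mean log2(RPKM + 1). Hey2 thus lay on the side of Hey1, but it was detected in only 10 of 29 Wt1-only cells, with a median of 0. Heyl, of the same family and detected in 26 cells, differed by only -0.07 in this mean. It was detected in 16 of 29 Wt1-only and 4 of 11 distal-only cells, with medians of 1.48 and 0. Lower were the targets Myc (-2.56) and Ccnd1 (-1.42), the receptor Notch1 (-1.50), and the corepressor genes Hdac1 (-1.16), Hdac2 (-1.13), Tle3 (-1.07) and Ctbp2 (-1.02). Myc, Ccnd1 and the histone deacetylases answer to many other signals. By role, 1 of 9 cleavage genes, 1 of 7 endocytosis and trafficking genes, none of 3 glycosylation genes, 5 of 18 coactivators and corepressors and 3 of 6 other targets were past 2-fold. The other ligands Jag2, Dll3, Dll4, Dlk1 and Dlk2 and the receptor Notch4 are among 14 listed genes not analysed here.

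The common machinery was widespread. Of the genes not past 2-fold, the corepressor Ncor1 was detected in 52 of 57 cells, the Rbpj cofactor Snw1 in 51, the receptor protease Adam10 in 50, the gamma-secretase subunit Psenen and the ligand-activating ubiquitin ligase Mib1 in 45 each, and the coactivator Crebbp in 39. Median Adam10 was 20.6 in Wt1-only and 19.2 in distal-only cells, against 33.1 and 19.5 for Notch2. Rbpj, in 26 cells, was less widely detected than these 6 genes.

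**Figure D4:**
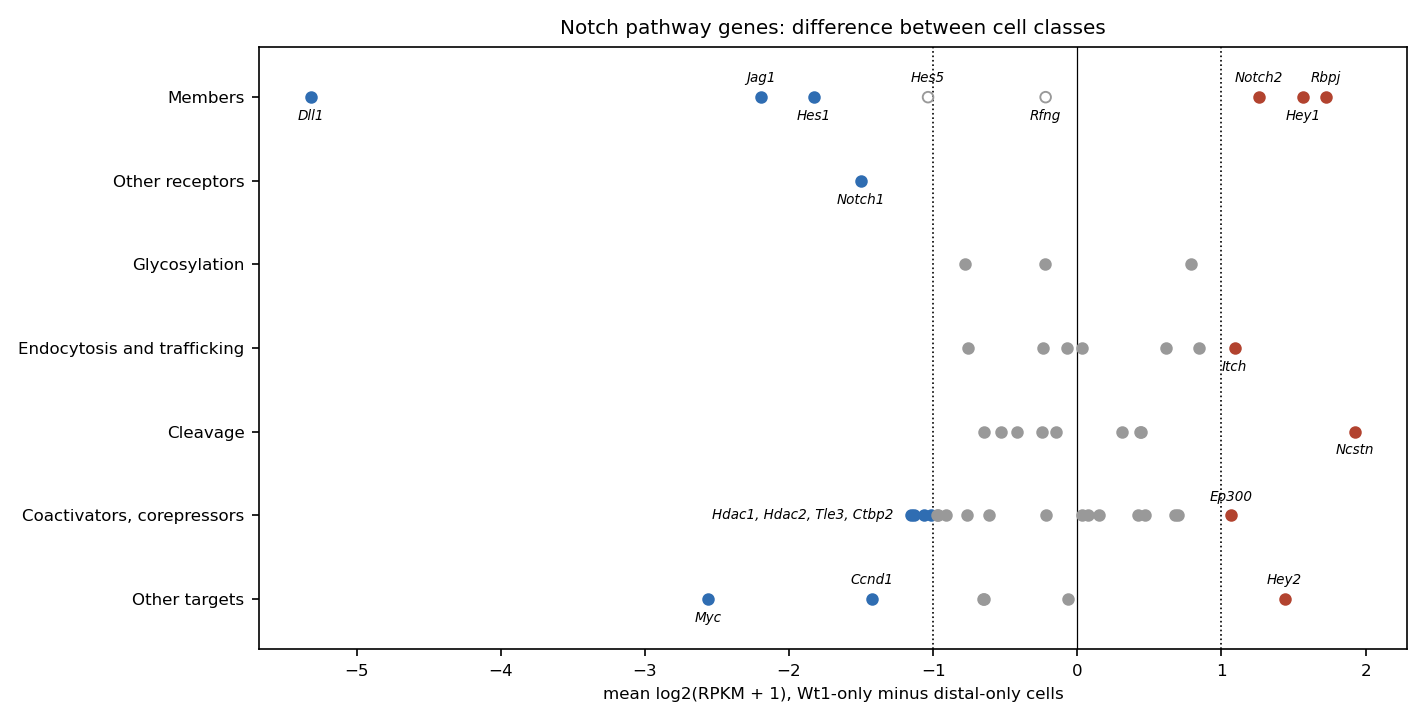
Differences in mean log2(RPKM + 1), Wt1-only minus distal-only cells, for the members and, by role, the other pathway genes that passed the filter. Dotted lines mark 2-fold and open symbols the members that did not pass. Dll1 at -5.31 lies farthest out and most other genes lie between the lines.

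Markers of other cell types differed between the same classes. The summed RPKM of 8 stromal and mural genes was 0.12 to 1005 with a median of 22.9 in Wt1-only cells and 0 to 12.6 with a median of 0.66 in distal-only cells. The 4 ureteric bud genes with a row summed to 0 to 204 (median 2.71) and 6.25 to 404 (median 56.9). Hoxb7 was detected in 10 of 29 and 9 of 11 cells, Cdh16 in 2 and 6, and Krt18 in 4 and 3. Wnt11, which marks ureteric tips, was detected in 1 of 29 Wt1-only cells, at 4.22, and was at 0 in all 11 distal-only cells. The part of these markers in the differences of Jag1, Dll1, Hes1, Notch2, Rbpj and Hey1 was not tested. Nephron epithelium genes, a list that holds Jag1, summed to medians of 982 and 1700. Endothelial genes had a median sum of 0 in both classes.

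The authors' deposited table of a proximal against a distal class holds 787 genes in 28 cells, of which 16 were Wt1-only, 10 distal-only, 1 with both and 1 with neither here. It shares these cells and is no independent evidence. The authors' deposited table gives Dll1 a signed fold of -88.3, the third largest of 351 genes higher in the distal class. Hes1 (-4.18) and Jag1 (-2.41) were on the same side in the authors' deposited table, at ranks 233 and 326. Rbpj (6.33) and Notch2 (2.46) were on the proximal side of the authors' deposited table, at ranks 187 and 416 of 436 genes. For these 5 members the authors' deposited table had the directions described above, and it has no row for Hes5, Hey1 or Rfng. Of the other pathway genes, Ncstn (9.86), Hey2 (5.88) and Ep300 (4.99) were proximal and Myc (-10.3) and Hes6 (-3.25) distal in the authors' deposited table.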

How the data were processed

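The authors deposited RPKM values of 12087 genes in 57 cells, per the file headers, with a count of cells above RPKM 3 for each gene that was never below 2, which left out genes low in almost all cells. A second deposited table gives the authors' signed fold, a score between a proximal and a distal class, with neither its formula nor the cells' classes given in the sources used here. TopHat 1.4.1, DESeq and build mm9 are listed, without roles, in the submitters' processing notes. Per the labels' protocols, chambers were inspected for single cells, and doublets were not called here.

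A gene was detected at RPKM 1. Class differences are between means of log2(RPKM + 1), a scale that understates the change of low genes. They were called past 2-fold among 10083 genes with mean RPKM of 1 or more over all cells and detection in at least 5 cells. Depth was estimated from what 1 read is worth in each cell, using exon lengths of GENCODE M21, another build than mm9, so it is approximate. Amplified reads without molecular identifiers are not independent molecules. Named genes are all members, every other listed pathway gene past 2-fold, the 6 others detected in most cells, and the 5 genes most like each member, of which 1 is not reported here. Notch1 and Lfng are described more fully and Heyl is named beside Hey2, and this was decided after their values were seen. The members, classes and lists were chosen with earlier results of these data known. Alternatives covered the pseudocount, filter, scale, class threshold, cells used and scaling between cells. The difference script was tested on simulated data. Python 3.11.15, numpy 2.4.6, pandas 2.3.3, SciPy 1.17.1 and matplotlib 3.10.9 were used.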

Additional observations from a re-analysis of the deposited data

How the results depend on the processing

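No paired analysis was possible because the cells form 1 group of 1 pool. Past 2-fold between Wt1-only and distal-only cells were 6 members and 11 other pathway genes. With a pseudocount of 10 these counts were 2 and 3, with Dll1 and Jag1 as the 2 members, while Hes1 was -0.91, Notch2 0.71, Rbpj 0.74 and Hey1 0.99. With a pseudocount of 0.1 there were 22 other pathway genes, and over all 10083 genes 2017 were higher and 1998 lower in Wt1-only cells, against 940 and 1124 with a pseudocount of 1 and 158 and 262 with 10. The log2 ratio of mean RPKM gave 2682 higher (26.6%) and 1539 lower (15.3%), with a median difference of 0.16, and Notch2 at 0.94. Leaving out each of the 40 cells in turn gave 5 to 6 members and 9 to 15 other pathway genes, and only the loss of cell 52 ended a call among the members, that of Notch2. Chosen after seeing the data were the distal class cut on Sox9 alone and the fit without cells under 1 M reads, which also ended the Notch2 call (0.97). Over all alternatives other than single cells, Jag1 ranged from -2.25 to -1.27 and Dll1 from -7.14 to -3.06, and no member that passed the filter changed sign. The rho of Jag1 and Hes1, 0.31, was 0.44 over all 57 cells. Detection above RPKM 0 gave 37 cells with Dll1 and 46 with Rbpj. Cells at the lowest depth can miss short genes such as Hes5 and Rfng.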
